A study of Mus musculus with 6 samples.

Results

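The genes described here are the aryl hydrocarbon receptor and 5 genes tied to it: Ahr, its repressor Ahrr, the feedback enzyme gene Tiparp, and the target enzyme genes Cyp1a1, Cyp1b1 and Nqo1. They were measured in the carotid body, a small chemosensory organ in the neck in which type I (glomus) cells detect a fall in arterial oxygen. They are 6 of the 18193 genes that the platform annotation names from a probe set of their own. Values were taken from all probe sets whose platform annotation gives one of these 6 symbols alone, which came to 11 of the 45101 probe sets on the Affymetrix Mouse 430 2.0 array. Ahr has 2 of them, Tiparp and Cyp1b1 have 3 each, and Ahrr, Cyp1a1 and Nqo1 have 1 each. The study set untreated male mice of the inbred strain DBA/2J against untreated male mice of the inbred strain A/J, all 28 days old and from the same supplier. Each strain had 3 arrays. The DBA/2J arrays carried RNA pooled from 38, 36 and 38 carotid bodies of 19, 18 and 19 mice, and the A/J arrays from 40, 42 and 38 carotid bodies of 20, 21 and 19 mice. The spread between arrays is therefore a spread between pools, and the number of arrays limits the precision of every value.

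The aryl hydrocarbon receptor is a transcription factor that waits in the cytoplasm with chaperones until a planar aromatic ligand binds it. It then enters the nucleus, pairs with ARNT and binds short DNA elements with the core GCGTG, which raises transcription of drug-metabolising enzymes such as CYP1A1 and CYP1B1. ARNT is also the partner of the hypoxia-inducible factors, whose function the carotid body depends on. AHRR and TIPARP are made in response to the receptor and dampen it, AHRR by competing for ARNT and its sites, TIPARP by adding ADP-ribose to the receptor. The strains are a textbook pair for this pathway, because DBA/2J mice carry a low-affinity form of the receptor protein and A/J mice a high-affinity form. An expression array reads the amount of the transcript and not the affinity of the protein.

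Signals are the authors' linear intensities in arbitrary units. Values were compared as log2(signal + 16) in limma, and each difference is the DBA/2J mean minus the A/J mean, with a two-sided p adjusted over the 27022 probe sets kept by a filter on the mean over all 6 arrays. Median signals per array lay between 163.5 and 183.1. Pearson correlations across those probe sets, which are not independent replicates, were 0.904 to 0.959 within a strain and 0.878 to 0.924 between strains, so the ranges overlap. Markers of type I cells were present on every array: tyrosine hydroxylase (Th) had signals of 5535 to 8416 in DBA/2J and 2760.1 to 5428 in A/J. The summed signal of 13 measured type I markers was 62555 to 71787 in DBA/2J and 33010.4 to 40012 in A/J, and 6 of the 13 rose. The summed signal of 15 skeletal muscle markers was 1864 to 3283 in DBA/2J and 52396 to 125634 in A/J, and all 14 that were tested fell. Some of them, such as Myh1 (28.5 to 75.6) and Myh4 (11.3 to 103.5), lay under the filter floor, a signal of 114.1, on every DBA/2J array. Such genes were kept only through their A/J signals, so their fall is not independent of the filter. Others, such as Casq1 (561.0 to 830.9 in DBA/2J and 2298.3 to 5519.7 in A/J), lay above the floor in both strains.

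Of the 11 member probe sets, 8 passed the filter, and 1 of these 8, the brightest of Cyp1b1, passed the test. Of all tested probe sets, 3.27% passed. The other members gave 0 passing probe sets, and at an unadjusted limma p under 0.05 the count was 3 of 8, where 15.3% of all probe sets reach that level. The strains did not overlap in 3 of the 8, against 21.1% of all tested probe sets, with DBA/2J above A/J in 2 (11.5% of all) and below it in 1 (9.54% of all). The median log2 difference of the 8 was 0.34, and that of all tested probe sets was 0.01. By the rule the series states (at least 1.5-fold in 6 of 9 array pairs and a p under 0.05, for which the unadjusted limma p stands in), 1 of the 8 passed, again Cyp1b1, where 9.98% of all tested probe sets pass.

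**Figure D1:**
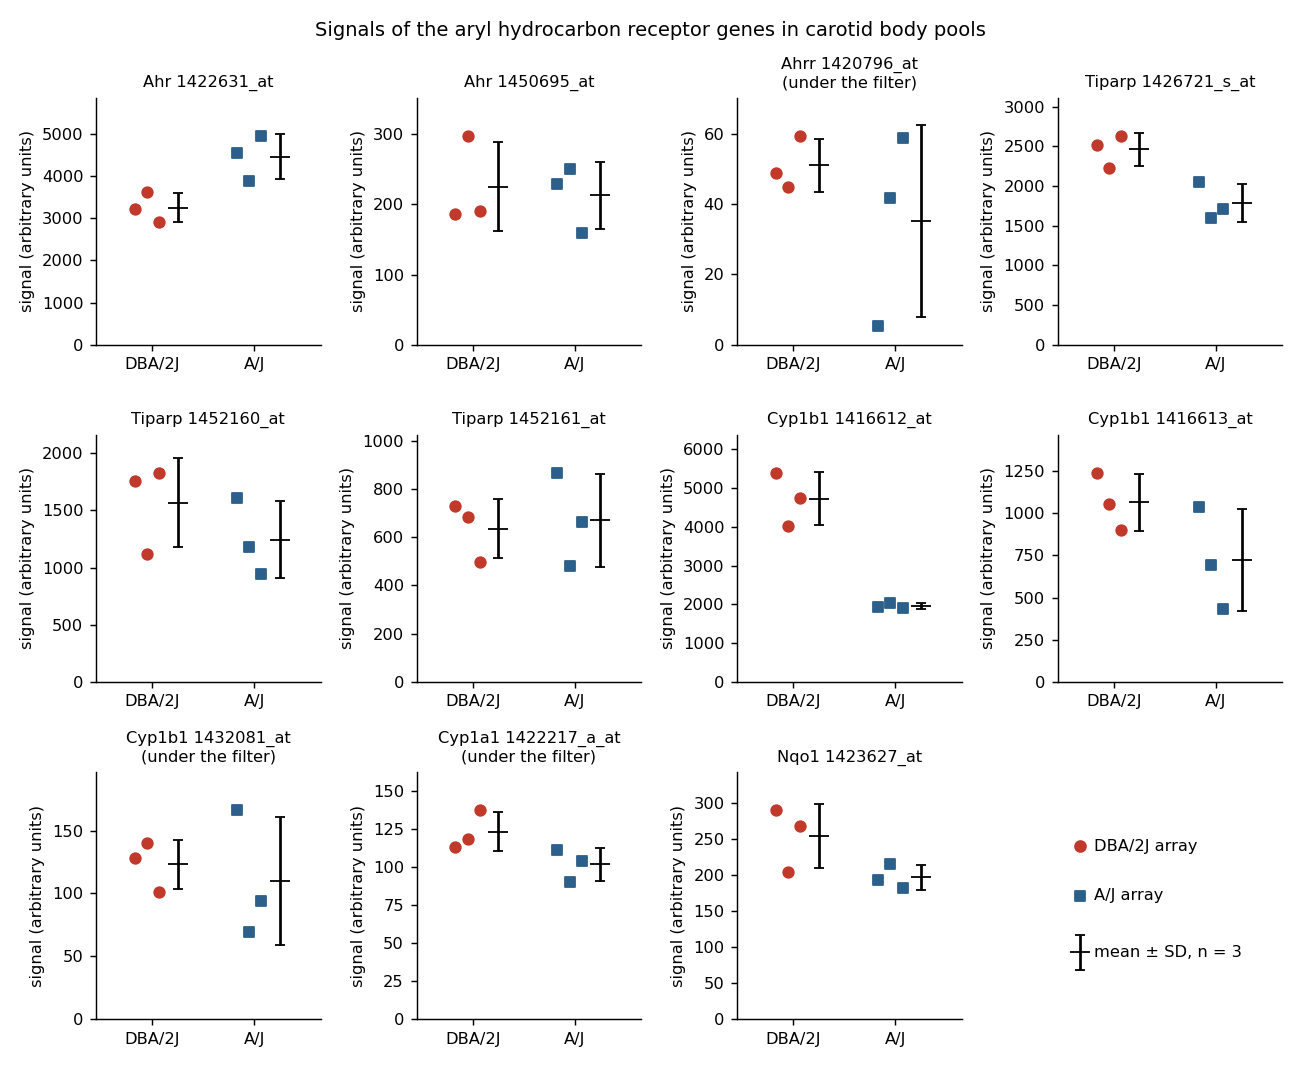
Signal (arbitrary units, linear axis from 0) of the 11 member probe sets on the 3 DBA/2J arrays (red circles, left) and the 3 A/J arrays (blue squares, right), with mean and SD beside the points. The brightest Cyp1b1 probe set separates the strains clearly, with 4029.8 to 5395 in DBA/2J and 1907 to 2037 in A/J, while most other panels overlap.

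Transcripts of the receptor itself were measured by a bright and a dim probe set. The bright Ahr probe set, 1422631_at, had signals of 3218, 3611 and 2917 in DBA/2J, against 4540.5, 3884 and 4961.5 in A/J. All 3 DBA/2J values lay under all 3 A/J values, although the highest DBA/2J and the lowest A/J value were close to each other. The means were 3249 ± 348 in DBA/2J and 4462 ± 543 in A/J (SD, n = 3 arrays each), a ratio of 0.728. The log2 difference was -0.45 (SE 0.17, 95% confidence interval -0.84 to -0.07). The unadjusted limma p was 0.0268 and the adjusted p 0.240, so it did not pass. With array weights, a setting under which 11.1% of all probe sets pass, its adjusted p was 0.0451. In whole-organ RNA, fewer cells of a type and less RNA per cell cannot be told apart.

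The dim Ahr probe set gave no separation of the strains. Probe set 1450695_at had signals of 187, 298 and 190 in DBA/2J, against 229, 251 and 159.5 in A/J. Its log2 difference was 0.06 (95% confidence interval -0.54 to 0.67, limma adjusted p = 0.948). The annotation draws both Ahr probe sets from the same sequence record. The interval of the dim probe set includes the -0.45 of the bright one, so the dim probe set gives no direction of its own. No single direction for Ahr was shown. The mean of both probe sets, fitted per gene, gave -0.20 (SE 0.18, limma adjusted p = 0.658).

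Ahrr, which encodes the repressor, was too dim to be tested. Its signals were 48.9, 44.9 and 59.6 in DBA/2J, against 5.3, 41.7 and 58.9 in A/J. The strains overlapped, and A/J array 1 stood far under the other arrays. The filter kept probe sets from a mean log2 value that corresponds to a signal of 114.1, and no detection calls were used, so whether Ahrr is above background is not known. With no filter its log2 difference was 0.57, with a 95% confidence interval of -0.48 to 1.61 (limma adjusted p = 0.706).

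Tiparp, the other feedback gene, leaned towards DBA/2J in 2 of 3 probe sets without passing. Its brightest probe set, 1426721_s_at, had signals of 2518, 2225 and 2634 in DBA/2J, against 2052, 1594 and 1712 in A/J. All 3 DBA/2J values lay above all 3 A/J values. The means were 2459 ± 211 in DBA/2J and 1786 ± 237 in A/J (SD, n = 3 arrays each). The log2 difference was 0.46 (SE 0.18, 95% confidence interval 0.06 to 0.87), with an unadjusted limma p of 0.0294 and an adjusted p of 0.251. The suffix of its name marks a probe set that may share sequence with transcripts of other genes. The other probe sets of Tiparp, from the same sequence record, overlapped between strains: 1452160_at ran from 1119 to 1830.1 in DBA/2J and from 940.2 to 1606 in A/J. Probe set 1452161_at ran from 498 to 728 in DBA/2J and from 480.3 to 868 in A/J. Their log2 differences were 0.33 and -0.05, with limma adjusted p of 0.643 and 0.957.

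Cyp1b1, which encodes a cytochrome P450 that oxidises oestrogens, retinoids and polycyclic hydrocarbons, was the member that rose. It is expressed without an added inducer in pericytes, fibroblasts and other mesenchymal cells, unlike Cyp1a1, whose transcript is scarce in most tissues until the receptor is activated. The stretch of 250 bases before the annotated start of each gene is shown because the 2 enzymes are the standard pair of receptor targets and of them only Cyp1b1 passed the filter here. Sequences are RefSeq's, build GRCm38.p6, written 5′ to 3′ along the gene. Cyp1b1 lies at chr17:79715062-79715311 on the minus strand and Cyp1a1 at chr9:57697363-57697612 on the plus strand. Capitals mark the receptor core, GCGTG, or CACGC where it is read on the other strand.
Cyp1b1: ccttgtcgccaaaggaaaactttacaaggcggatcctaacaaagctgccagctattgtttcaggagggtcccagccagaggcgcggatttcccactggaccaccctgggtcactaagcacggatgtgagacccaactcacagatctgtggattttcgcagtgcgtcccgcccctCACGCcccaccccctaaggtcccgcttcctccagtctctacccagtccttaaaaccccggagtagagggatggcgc
Cyp1a1: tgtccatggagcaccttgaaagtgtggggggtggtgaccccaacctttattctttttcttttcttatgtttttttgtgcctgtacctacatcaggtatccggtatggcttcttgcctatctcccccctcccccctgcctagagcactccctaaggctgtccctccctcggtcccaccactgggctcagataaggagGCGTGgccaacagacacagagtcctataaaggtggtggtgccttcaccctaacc

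Each of these windows holds the core 1 time, beginning 76 bases before the start of Cyp1b1 and 54 bases before that of Cyp1a1. Of the 5 members with a window in the table, 4 hold the core on either strand, Ahrr 3 times and Tiparp 1 time, while the window of Nqo1 holds none. The core is common: 28.2% of the 32851 promoter windows of this length hold it. It also overlaps the hypoxia-inducible factor core, ACGTG or GCGTG, which 38.6% of windows hold. The longer receptor element TNGCGTG was found only in the window of Ahrr, and in 4.1% of all windows. The antioxidant element TGACNNNGC was in none of the 5 windows and in 10.2% of all windows. These matches describe letters in a short window of the reference strain and not binding.

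The brightest Cyp1b1 probe set, 1416612_at, had signals of 5395, 4029.8 and 4749 in DBA/2J, against 1931, 2037 and 1907 in A/J. The strains were far apart, the lowest DBA/2J value being 1.98 times the highest A/J value, and the 3 A/J values were nearly equal. The means were 4725 ± 683 in DBA/2J and 1958 ± 69.0 in A/J (SD, n = 3 arrays each), a ratio of 2.41. The log2 difference was 1.254 (SE 0.17, 95% confidence interval 0.87 to 1.64, limma adjusted p = 0.00486), and all 9 array pairs were at least 1.5-fold higher in DBA/2J. It passed without each array in turn, with log2 differences from 1.15 (without DBA/2J array 1, limma adjusted p = 0.0393) to 1.36 (without DBA/2J array 2, adjusted p = 0.00293). Without A/J arrays 1 and 3 together it did not pass, with a log2 difference of 1.20 and a limma adjusted p of 0.248, in a fit where the lone A/J array is assumed to vary like the DBA/2J arrays.

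The other Cyp1b1 probe sets showed smaller differences. Probe set 1416613_at, from the same sequence record as the brightest, had signals of 1241.5, 1054 and 903 in DBA/2J, against 1036, 695 and 435 in A/J. The strains overlapped, since A/J array 1 lay above DBA/2J array 3, and the A/J arrays spread widely where those of 1416612_at did not. Its log2 difference was 0.62 (SE 0.30, 95% confidence interval -0.06 to 1.31, limma adjusted p = 0.380). On the log2 scale the gap between these 2 probe sets was 2.11, 1.92 and 2.37 on the DBA/2J arrays (mean 2.13). It was 0.89, 1.53 and 2.09 on the A/J arrays (mean 1.50), so the ratio of the 2 was not constant within A/J. Probe sequences were not examined, so why probe sets of a gene differ between strains was not tested. The third, 1432081_at, was under the filter, with signals of 128, 140.1 and 101.5 in DBA/2J, against 167, 68.9 and 94 in A/J. With no filter its log2 difference was 0.21 (95% confidence interval -0.58 to 1.00, limma adjusted p = 0.879). The mean of the 2 kept probe sets, fitted per gene, gave 0.94 (SE 0.20, limma adjusted p = 0.0342).

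Several marker lists of the cells a carotid body pool can hold also separated the strains, and their part in the Cyp1b1 difference was not tested. The summed type I cell signal, given above, was higher in DBA/2J without overlap. All 13 tested markers had positive log2 differences, with a median of 0.88, and most did not overlap between strains. Dbh, the enzyme of noradrenaline synthesis, was an exception and overlapped (2699.6 to 3784 in DBA/2J and 2077 to 4156 in A/J). The type I sum was highest on DBA/2J array 3 and A/J array 3, and 1416612_at on DBA/2J array 1 and A/J array 2. With 3 arrays in each strain and nearly equal A/J values of 1416612_at (1907 to 2037), this order is not informative. The summed skeletal muscle signal was lower in DBA/2J without overlap, as given above. It varied 2.40-fold between the A/J arrays, where 1416612_at varied 1.07-fold and the other kept Cyp1b1 probe set, 1416613_at, ran from 434.8 to 1036.4. How the muscle signal and Cyp1b1 are related was not tested.

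Sums of other lists lay apart as well. The summed signal of 9 adipocyte markers was 37034 to 54424 in DBA/2J and 63322 to 90225 in A/J, and 2 of the 8 tested fell. That of 8 glial markers was 29793 to 35636 in DBA/2J and 41539 to 49723 in A/J, and 0 of 8 passed by limma. That of 7 epithelial markers was 1252.5 to 1600.4 in DBA/2J and 2454 to 3399 in A/J, and 1 of the 5 tested, Epcam, fell. Epcam had signals of 289.7 to 688.3 in DBA/2J and 1287.3 to 2647.3 in A/J, so this sum separated largely through Epcam. Krt18 went the other way without overlap (log2 difference 1.09, limma adjusted p = 0.0971), as did Krt14, which was under the filter. The summed signal of 11 endothelial markers was higher in DBA/2J, with 11926.5 to 16100.2 against 10135 to 11515.5 in A/J, and 0 of 11 passed. Of these markers, 7 had positive and 4 negative log2 differences. The negative ones were Pecam1 (-0.12), Cdh5 (-0.16), Tek (-0.12) and Tie1 (-0.57), all with overlap between strains. None of these sums overlapped between strains.

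The lists of the mesenchymal cells and of macrophages overlapped in their sums. For 11 smooth muscle and pericyte markers the sum was 56214 to 71279 in DBA/2J and 58523 to 68848 in A/J. Of the 11, 0 passed by limma, with 4 positive and 7 negative log2 differences. All 3 DBA/2J values lay above the A/J values for Abcc9 (0.57) and Kcnj8 (0.50), subunits of a potassium channel of pericytes, and below them for the contractile genes Cnn1 (-0.71) and Tagln (-0.44) and for Cspg4 (-0.31). Of all tested probe sets, 11.5% lay wholly above and 9.54% wholly below. The remaining markers overlapped: Pdgfrb (0.64) and Rgs5 (0.36) were positive, and Myh11 (-0.43), Acta2 (-0.29), Des (-0.29) and Notch3 (-0.05) negative. For 10 fibroblast markers the sum was 89577 to 120989 in DBA/2J and 114305 to 118477 in A/J. Fbln2 alone passed, rising by 1.09, while the 10 had 3 positive and 7 negative log2 differences (median -0.14). For 10 macrophage markers the sum was 21745 to 32232 in DBA/2J and 31964 to 34056 in A/J, and 0 of the 9 tested passed. None of the markers in these lists was at 0.

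**Figure D2:**
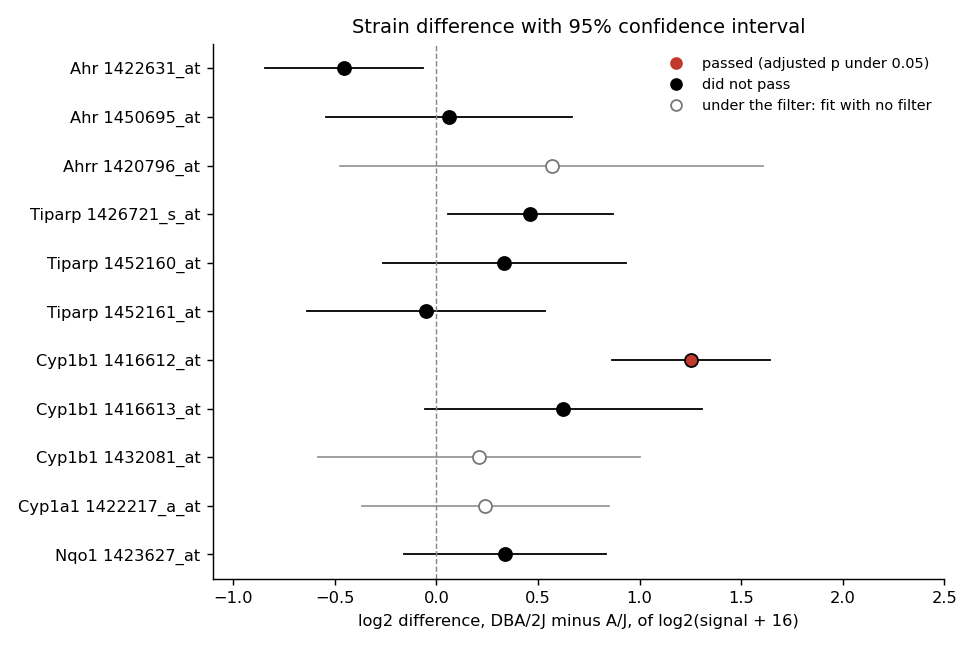
Log2 difference, DBA/2J minus A/J, of the 11 member probe sets, with 95% confidence intervals as lines. The Cyp1b1 probe set 1416612_at (red, 1.254) is the one that passed, the black points did not pass, and the 3 open points were under the filter and come from the fit with no filter.

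Cyp1a1, the best known target of the receptor, was dim in both strains. Its probe set, 1422217_a_at, had signals of 113, 118.5 and 137 in DBA/2J, against 111, 89.9 and 104 in A/J. The DBA/2J values all lay above the A/J values, by as little as 113.1 against 110.9. It was under the filter, and with no filter the log2 difference was 0.24 (95% confidence interval -0.37 to 0.85, limma adjusted p = 0.800). Cyp1a2, a related P450 of the same gene cluster, was under the filter too, with signals of 10.6 to 16.3 in DBA/2J and 15 to 45.8 in A/J.

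Nqo1 encodes a quinone reductase that both the receptor and the stress factor NRF2 induce. Its signals were 289.9, 204 and 268 in DBA/2J, against 193, 215 and 181 in A/J. DBA/2J array 2 lay within the A/J range and the other DBA/2J arrays lay above it. The means were 254 ± 44.4 in DBA/2J and 196 ± 17.0 in A/J (SD, n = 3 arrays each), with a log2 difference of 0.34 (95% confidence interval -0.16 to 0.83, limma adjusted p = 0.550).

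**Figure D3:**
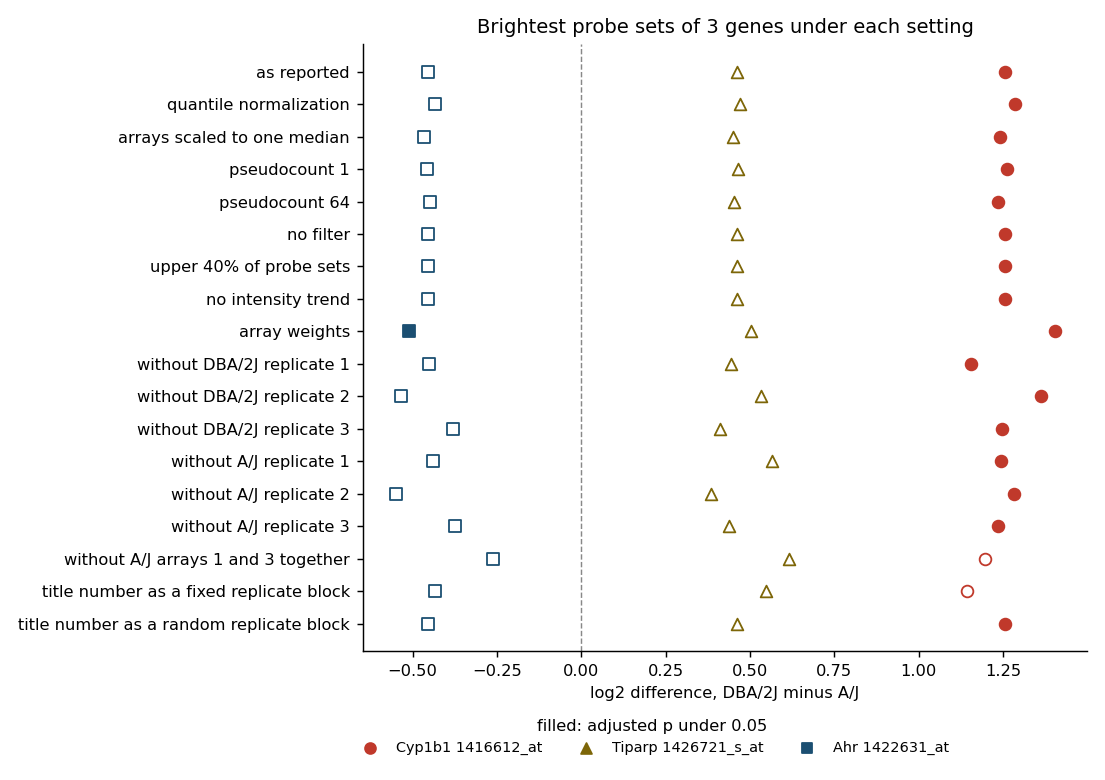
Log2 difference, DBA/2J minus A/J, of the brightest probe sets of Cyp1b1 (circles), Tiparp (triangles) and Ahr (squares) under each processing setting, filled where the limma adjusted p is under 0.05. Each gene keeps its side of 0 throughout: Cyp1b1 runs from 1.14 to 1.40, and Ahr is filled under array weights alone. The title number is a number that some array titles share.

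Genes that work with the receptor were examined in lists, each gene by its brightest probe set. Of 39 tested genes around the receptor, 2 passed, both higher in DBA/2J, where 3.77% of all 13006 tested genes passed. Arnt2, which encodes a neural paralogue of ARNT that can also pair with the receptor, had signals of 1451, 1709 and 1844 in DBA/2J, against 437, 601.5 and 589.5 in A/J. The strains did not overlap, and its log2 difference was 1.60 (SE 0.21, limma adjusted p = 0.00344). Its 2 other probe sets were under the filter. For neither passing gene was the part of cell content tested. Arnt itself varied too much between arrays of a strain to be placed, with 530.1, 156 and 887 in DBA/2J, against 196, 928 and 239.9 in A/J (log2 difference 0.24, limma adjusted p = 0.918). Its other kept probe sets gave -0.02 and 0.41.

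Among the remaining genes of the receptor complex, none passed. Hsp90aa1, an isoform of the chaperone that holds the receptor in the cytoplasm, was at -0.17 (limma adjusted p = 0.682), and the coactivator gene Ncoa1 at 0.54 (adjusted p = 0.210), with its other kept probe sets at -0.19 and 0.59. The 6 tested genes of this list had a median log2 difference of 0.20, beside 0.03 over all genes tested. Of 9 tested genes that respond to the receptor in other settings, 0 passed by limma, 3 had positive and 6 negative log2 differences, and the median was -0.01. The largest in size of these 9 was Socs2, a cytokine signalling inhibitor, at 0.59 (limma adjusted p = 0.249, unadjusted p = 0.0289), with other kept probe sets from -0.40 to 0.44. A further 5 genes of this list were under the filter and not tested. Among them Serpinb2 did not overlap, with dim signals of 31.7 to 46.4 in DBA/2J and 88.5 to 144.1 in A/J, and the others overlapped. Of 3 tested genes that turn tryptophan into receptor ligands 0 passed (median -0.06), and of 4 that pass electrons to P450 enzymes or bind them 0 passed (median 0.01), in neither case with an unadjusted limma p under 0.05.

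Genes of the NRF2 pathway, which shares Nqo1 with the receptor, did not pass either. Of 11 tested, 3 had positive and 8 negative log2 differences, with a median of -0.05. The pentose phosphate enzyme gene Pgd had signals of 5101, 5504 and 4737 in DBA/2J, against 6778, 11037 and 8992 in A/J, without overlap (log2 difference -0.78, limma adjusted p = 0.0751), and its other kept probe sets ran from -0.77 to -0.65. Taldo1, of the same pathway, was at -0.56 (adjusted p = 0.0999), and Hmox1, the inducible haem oxygenase, at -0.66 (adjusted p = 0.322). Hmox1 was dim, with 88.8 to 97.1 in DBA/2J, under the filter floor of 114.1, and 104.5 to 214.7 in A/J. The 3 positive genes were Gclm at 0.63, Txnrd1 at 0.32 and Gclc at 0.18 (limma adjusted p = 0.371, 0.762 and 0.767). Their other kept probe sets gave 0.19, -0.33 and 0.26. Nfe2l2, which encodes NRF2, was at -0.01 (adjusted p = 0.993). Under array weights 8 genes around the receptor passed: Arnt2, Epas1, Il4i1, Ncoa1, Pgd, Socs2, Taldo1 and Xdh.

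The other factors of the receptor's own protein family, which share its basic helix-loop-helix and PAS domains, gave 1 passing gene among 7 tested. Epas1, the oxygen-regulated HIF-2 alpha subunit, which also needs ARNT, rose to 12474, 14621 and 12967 in DBA/2J, against 7328, 9020 and 8364 in A/J. The log2 difference was 0.70 (SE 0.15, limma adjusted p = 0.0381). This call did not hold without any single array, with limma adjusted p from 0.0599 to 0.152. Hif1a was at -0.05 (adjusted p = 0.949), with its other kept probe sets at -0.37 and 0.43. Hif3a was at 0.30 (adjusted p = 0.653), with its other kept probe sets at -0.51 and -0.39.

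**Figure D4:**
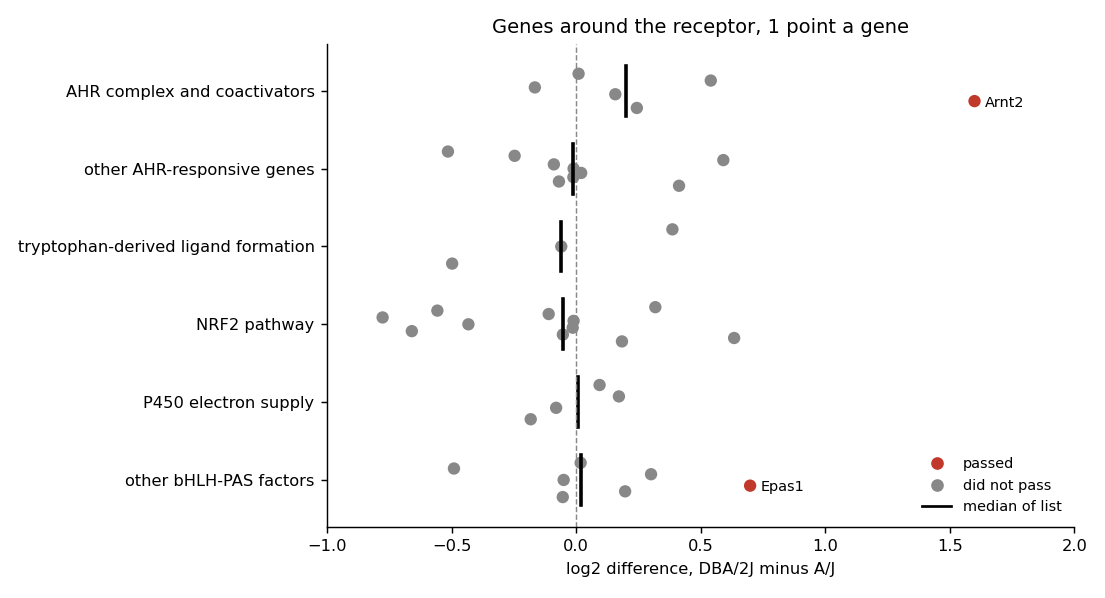
Log2 difference, DBA/2J minus A/J, of the tested genes around the receptor, 1 point for each gene, grouped by list, with the median of each list as a black bar. Arnt2 (1.60) and Epas1 (0.70) are the 2 that passed, and list medians run from -0.06 to 0.20.

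The genes whose levels ran most alike to each member were sought over the 6 arrays by Pearson correlation of log2 values, among the brightest kept probe sets of 13006 genes. For Cyp1b1 these were H2-Ea, Frrs1 and Dnajc10, with correlations of 0.997, 0.996 and 0.996, and 204 genes reached 0.95. For Ahr they were Pik3r6, Opa3 and Samm50 (0.993, 0.991 and 0.991), with 71 genes at 0.95 or more. Those for Tiparp were Klhl11, Rae1 and Errfi1 (0.995, 0.994 and 0.990), and those for Nqo1 were Wdr70, Rasa2 and Nemp2 (0.988, 0.987 and 0.985). No member was among the 3 of another. All these values share the same 6 arrays and the split between strains, and many genes reach such values over so few points.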

How the data were processed

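RNA from pooled carotid bodies was extracted with Trizol and labelled by a small-sample protocol that repeats cDNA synthesis and in vitro transcription, per the labels' protocols. The deposited values are linear intensity signals from 0.1 to 27051, scaled by the authors before deposit, since the trimmed mean of every array lay between 498.0 and 498.6. Which software summarised the probes is not given in these sources. Gene names come from the GEO annotation of the platform, updated with RefSeq (GRCm38.p6). In R 4.3.3, limma 3.58.1 (lmFit, eBayes with an intensity trend) was fitted to log2(signal + 16) of the upper 60% of probe sets by overall mean, without 64 controls, with Benjamini-Hochberg adjustment and a threshold of 0.05. The p-values rest on the spread between pools and do not measure that between single mice. A gene was represented by its brightest probe set. Motifs were searched in the 250 bases before each RefSeq start. Named genes are all members, passing genes of each list and a few fixed partners, and the 3 genes most alike to each member. Socs2, Pgd, Taldo1, Hmox1, Ncoa1, Dbh, Fbln2, Abcc9, Kcnj8, Cnn1, Tagln, Cspg4, Il4i1, Xdh, Hif1a and Hif3a were named after their values were seen. The same holds for Epcam, Krt18, Krt14, Pecam1, Cdh5, Tek, Tie1, Myh1, Myh4, Casq1 and Serpinb2. It also holds for Gclm, Gclc, Txnrd1, Pdgfrb, Rgs5, Acta2, Myh11, Des and Notch3. The members and lists were chosen with earlier results of these data known. The procedure was tested on simulated data, and figures were drawn with matplotlib 3.10.9. Alternatives are given in the closing section.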

Additional observations from a re-analysis of the deposited data

How the results depend on the processing

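Across all probe sets, 883 passed as reported, and between 341 (without DBA/2J array 1) and 1351 (without DBA/2J array 2) when 1 array was left out. It was 3007 with array weights, 63 without A/J arrays 1 and 3, and 2697 by the rule the series states. Of the member probe sets 1 passed as reported and without each array in turn, 2 with array weights (Cyp1b1 and Ahr), and 0 without A/J arrays 1 and 3. Numbers shared in some titles pair 2 arrays of each strain. With them as a fixed replicate block, 0 of all probe sets and 0 members passed by limma (1955 of all at an unadjusted p under 0.05), a fit with few degrees of freedom in which Cyp1b1 was at 1.14. Deviations of same-numbered arrays correlated at -0.26 and 0.04, and a random block gave 848 and 1. The sign of the dim Ahr probe set 1450695_at turned to -0.14 without DBA/2J array 2, -0.12 without A/J array 3 (the range without single arrays was -0.14 to 0.18) and -0.18 without A/J arrays 1 and 3. That of Tiparp 1452161_at turned to 0.062 with array weights, 0.11 without DBA/2J array 3, 0.15 without A/J array 1 (the range without single arrays was -0.27 to 0.15), 0.38 without A/J arrays 1 and 3 and 0.045 with the fixed block. The cause was not tested. For genes around the receptor, alternatives were added after seeing the data: 2 passed as reported, 8 with array weights, 1 (Arnt2) with no filter, with no intensity trend or without any single array, and 0 without A/J arrays 1 and 3 or with the fixed replicate block. Dim probe sets (Ahrr, Cyp1a1, Cyp1b1 1432081_at) have no known detection status.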
